A study of Canis lupus familiaris with 5 samples.

Results

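The 36 genes described here belong to the cellular response to low oxygen and to glycolysis. They were taken from a fixed list by symbol, and all 36 were found among the 35555 features of the deposited gene tables. By role they comprise 4 glucose and monocarboxylate transporters, 15 glycolytic enzymes, 3 regulators of glycolysis and pyruvate use, 4 HIF subunits and prolyl hydroxylases, and 10 other HIF target genes. The genes were measured in single nuclei of dog cephalic vein, a superficial forelimb vein that was used here as an arterial bypass graft.

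The grafted group was 1 library, from a vein of dog 1 that had been harvested with distension, sewn end-to-side into the carotid circulation with the artery between its ends tied off, and taken 24 h later. The distended group was 2 libraries, from dogs 1 and 2, of vein cannulated and distended with saline that held papaverine and bivalirudin, where harvest and distension together took about 30 minutes. The control group was 2 libraries, from the same dogs, of a separate cephalic segment that was not distended. All dogs were mongrels of 25 kg, labelled male for these 5 libraries, and no age is given. Bivalirudin, an anticoagulant, was also infused before the graft was sewn in, so the grafted vein had met both the distension solution and the systemic drug. All animals were under general anaesthesia. The graft has no replicate, its error in every test below was borrowed from the spread of the control and distended libraries, and nothing in it can be told apart from dog 1 alone. The distended against control and the graft against control comparisons share the same control libraries.

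When oxygen is sufficient, prolyl hydroxylases of the EGLN family mark the HIF alpha subunits, HIF1A and EPAS1, for destruction. When oxygen falls the subunits persist, pair with ARNT and raise transcription of glucose transporters, glycolytic enzymes and genes that limit mitochondrial use of pyruvate. HIF alpha is controlled mainly as a protein, so that RNA of its subunits and RNA of its targets need not move together. In vessels EPAS1 is best known as an endothelial gene, and endothelial cells draw much of their energy from glycolysis, for which PFKFB3 is a known driver.

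The 5 libraries differed widely in depth and content. After barcodes with under 100 detected genes had been removed, 2705 nuclei remained in the graft, 2108 and 241 in distended dogs 1 and 2, and 765 and 1036 in control dogs 1 and 2, with a median of 1562, 444, 433, 359 and 241 detected genes in that order. A pair of unannotated features took 2.98% of UMIs in the graft, 39.6% and 27.9% in the distended libraries and 70.8% and 65.2% in the controls. Ribosomal protein genes took 5.82% of the remaining UMIs in the graft, 0.506% and 8.93% in distended dogs 1 and 2, and 2.55% and 0.455% in control dogs 1 and 2. The 36 genes held 42946 UMIs in the graft, 2743 and 1206 in the distended libraries, and 1184 and 765 in the controls. Distended dog 2 thus stood apart by its few nuclei and its high ribosomal share, and pairs of libraries shared between 0 and 3 barcodes. Levels below are CPM (UMIs per 1000000 UMIs) with TMM scaling, in which library sizes are adjusted so that most genes keep the same level, unless another scale is named. They come from 3′ tags and were compared between libraries, not between genes. For classes of nuclei within a library the level is given as UPM, which is UMIs per 1000000 UMIs outside the 2 dominant features. In sums over a whole vein, fewer cells of a type and less RNA per cell cannot be told apart.

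**Figure D1:**
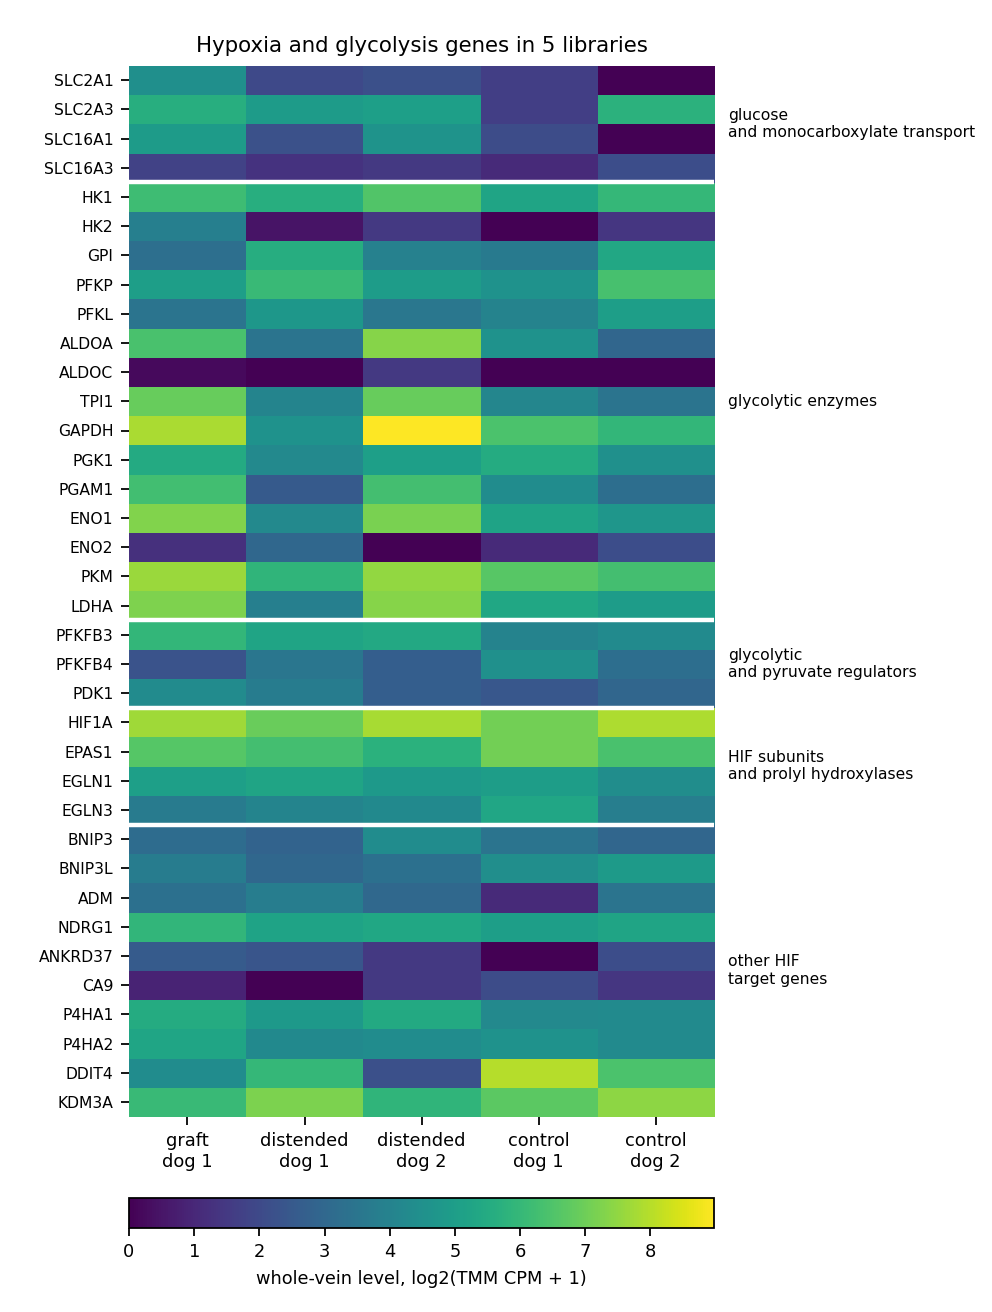
Whole-vein level of each of the 36 genes (rows, grouped by role) in each of the 5 libraries (columns), as colour on a log2(TMM CPM + 1) scale with 1 value per library. The middle enzymes of glycolysis are bright in both the graft and distended dog 2 (GAPDH 227.5 and 503 CPM) and darker in distended dog 1 (22.7 CPM), while HK2 and SLC2A1 are brighter in the graft than in any other library.

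In whole-vein sums the hypoxia and glycolysis genes leaned higher in the graft than in control, but none passed the test. Of the 36 genes 33 were abundant enough to be tested. ALDOC, an aldolase isoform, CA9, a carbonic anhydrase and classic HIF target, and SLC16A3, a lactate exporter, were not. In the graft against control 22 of the 33 had a positive log2 fold change, and the median was 0.78 over these genes against 0.12 over all 13170 genes tested. With edgeR's quasi-likelihood test and Benjamini-Hochberg adjustment 0 of 33 were called, where 0% of all genes were called in either direction. At an unadjusted p under 0.05, 5 of 33 were higher and 0 lower, beside 4.78% of all genes higher and 4.04% lower. DESeq2 called 0 of the 29 genes to which it gave an adjusted p. The graft lay above all 4 other libraries for 11 of 33 genes (33.3%), against 26.8% of all genes, and below all 4 for GPI, PFKL, PFKFB4 and EGLN3 (12.1%), against 19.5%.

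In distended vein against control the median of the 33 genes was 0.44 and that of all genes 0.08. Again 0 of 33 were called and 0% of all genes were. At an unadjusted p under 0.05 in edgeR, 1 gene was higher and 0 lower, beside 0.949% and 0.463% of all genes, and DESeq2 called 0 of 33. Both distended libraries lay above both controls for SLC2A1, SLC16A1, PFKFB3 and P4HA1 (12.1%, against 12.9% of all genes), and below both for DDIT4, EPAS1 and BNIP3L (9.09%, against 10.3%). In graft against distended vein the median was 0.59 over the 33 genes and 0.01 over all genes. There 0 of 33 were called (0% of all genes), and 1 was higher and 0 lower at an unadjusted p under 0.05, beside 2.97% and 2.54% of all genes. DESeq2 called 0 of the 30 genes to which it gave an adjusted p. Some calls appeared when 1 distended library was left out, which left that group with 1 library. Calls over all genes rose in the same fits. Without distended dog 1, the log2 fold change of the genes called in the graft against control was 3.10 for TPI1, 3.905 for SLC16A1 and -3.12 for DDIT4. In the remaining distended library against control it was 3.33 for ALDOA, 3.10 for TPI1 and -5.59 for DDIT4. Without distended dog 2 it was 3.13 for TPI1 in the graft against control. For the graft against the remaining distended library it was then 3.46 for LDHA and 3.98 for PGAM1.

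Of the 4 transporters that import glucose or carry lactate, SLC2A1 and SLC16A1 had far more UMIs in the graft than in the other libraries. SLC2A1 (GLUT1), the widely expressed glucose importer, had 455 UMIs in the graft, 8 and 2 in distended dogs 1 and 2, and 2 and 0 in control dogs 1 and 2. That is 21.0 CPM in the graft, 2.98 and 3.60 in the distended libraries and 2.19 and 0 in the controls. The graft was above every other library, and both distended libraries were a little above both controls. The ratio of pooled levels, graft over control, was 15.8 with an exact 95% counting interval from 4.35 to 131. It was 9.56 without control dog 2, and without control dog 1, when no count remained, at least 4.16-fold. The fitted log2 fold change was 4.03 ± 1.38 (SE), with an unadjusted p of 0.0167 and an adjusted p of 0.56 in edgeR. SLC2A1 was abundant enough to be tested only through the graft.

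SLC16A1 (MCT1), which moves lactate and pyruvate across the membrane, had 631 UMIs in the graft, 10 and 13 in distended dogs 1 and 2, and 3 and 0 in control dogs 1 and 2. Its level was 29.1 CPM in the graft, 3.73 and 23.4 CPM in the distended libraries, and 3.29 and 0 CPM in the controls. Distended dog 2 was close to the graft, and distended dog 1 was close to the controls. The pooled ratio of graft to control was 14.6 (4.98 to 71.1), or 8.84 without control dog 2 and at least 5.77-fold without control dog 1, and the edgeR adjusted p was 0.56. For distended against control the ratio was 3.57 (1.08 to 18.6), which became 11.8 without distended dog 1 and 1.87 without distended dog 2.

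SLC2A3 (GLUT3), a high-affinity glucose importer, did not separate the groups. Its level was 48.6 CPM in the graft, 29.1 and 32.4 CPM in the distended libraries, and 2.19 and 53.7 CPM in the controls. SLC16A3 had between 1 and 52 UMIs in a library and was not tested.

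Of the enzymes, HK2 had nearly all of its UMIs in the graft. HK2, the inducible hexokinase that traps glucose as its phosphate, had 293 UMIs in the graft, 1 and 1 in distended dogs 1 and 2, and 0 and 1 in control dogs 1 and 2. The graft alone had more than 1 UMI, and only through the graft was HK2 abundant enough to be tested. The pooled ratio of graft to control was 20.4 (3.63 to 807), 8.04 without control dog 1 and at least 4.10-fold without control dog 2. Against distended vein it was 21.9 (5.997 to 181), 7.51 without distended dog 1 and 36.2 without distended dog 2. The edgeR adjusted p was 0.56 against control and 0.91 against distended vein, with unadjusted p of 0.0437 and 0.0365. HK1, the constitutive hexokinase, had 72.01 CPM in the graft, 48.5 and 91.7 CPM in the distended libraries, and 37.3 and 62.1 CPM in the controls, so that the distended libraries overlapped both other groups.

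Most enzymes from aldolase to lactate dehydrogenase were high in the graft and in distended dog 2, and low in distended dog 1 and in both controls. ALDOA, which splits fructose bisphosphate, had 83.0 CPM in the graft, 10.1 and 160 CPM in distended dogs 1 and 2, and 23.0 and 6.71 CPM in control dogs 1 and 2. TPI1, which interconverts the products of that split, had 117 CPM in the graft, 15.7 and 119 CPM in the distended libraries, and 16.4 and 10.1 CPM in the controls. GAPDH, which makes the first NADH of the pathway, had 227.5 CPM in the graft, 22.7 and 503 CPM in the distended libraries, and 85.5 and 60.4 CPM in the controls. For each of these 3 enzymes distended dog 2 was as high as the graft or higher, and distended dog 1 was as low as the controls or lower. Of these 3, TPI1 had the smallest p in the graft against control, with a log2 fold change of 3.12 ± 1.09 (SE), an unadjusted p of 0.0179 and an adjusted p of 0.56 in edgeR. It was also the 1 gene of the 33 under 0.05 in distended against control, at 2.29 with an unadjusted p of 0.0433 and an adjusted p of 1. Without distended dog 2, the log2 fold change of distended against control was -0.61 for ALDOA and -1.685 for GAPDH.

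PGAM1, which moves the phosphate of phosphoglycerate, had 76.0 CPM in the graft, 4.85 and 77.3 CPM in the distended libraries, and 19.7 and 8.39 CPM in the controls. ENO1, the enolase of most tissues, had 153 CPM in the graft, 17.9 and 144 CPM in the distended libraries, and 36.2 and 25.2 CPM in the controls. LDHA, which turns pyruvate to lactate, had 151 CPM in the graft, 13.8 and 162 CPM in the distended libraries, and 39.5 and 30.2 CPM in the controls. For each of the 3 the graft and distended dog 2 were above both controls, and distended dog 1 was below both. PKM, which makes pyruvate, had 196 CPM in the graft, 57.0 and 183 CPM in the distended libraries, and 98.7 and 77.2 CPM in the controls. PGK1, which makes the first ATP of the pathway, showed no such split, with 43.5 CPM in the graft, 17.9 and 32.4 CPM in the distended libraries and 44.95 and 21.8 CPM in the controls. Graft over control, the log2 fold changes were 2.44 for ALDOA, 2.41 for PGAM1, 2.31 for ENO1, 2.11 for LDHA, 1.64 for GAPDH, 1.15 for PKM and 0.37 for PGK1, and none was called in edgeR.

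GPI, PFKP and PFKL, which carry out the isomerase and phosphofructokinase steps between hexokinase and aldolase, leaned the other way. GPI had 8.71 CPM in the graft, 47.3 and 14.4 CPM in the distended libraries, and 12.1 and 40.3 CPM in the controls. PFKP had 31.9 CPM in the graft, 66.4 and 30.6 CPM in the distended libraries and 23.0 and 80.6 CPM in the controls, and PFKL had 9.86 CPM, 26.1 and 10.8 CPM, and 15.3 and 31.9 CPM in the same order. The graft was below every other library for GPI and PFKL, yet none of the 3 was called. ENO2, the neuronal enolase isoform, had 30 UMIs in the graft, 19 and 0 in the distended libraries and 1 and 2 in the controls. ALDOC had between 0 and 4.

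The 3 regulators did not act as a block. PFKFB3 makes a fructose bisphosphate that stimulates phosphofructokinase and differs from the one that ALDOA splits. PFKFB3 had 61.0 CPM in the graft, 36.5 and 41.3 CPM in the distended libraries, and 15.3 and 18.5 CPM in the controls. The 3 groups did not overlap, with a log2 fold change of 1.86 ± 0.78 (SE) in the graft against control, an unadjusted p of 0.04 and an adjusted p of 0.56 in edgeR. PDK1, a kinase that limits mitochondrial use of pyruvate, had 19.0 CPM in the graft, 12.7 and 5.39 CPM in the distended libraries, and 4.39 and 6.71 CPM in the controls. PFKFB4, a relative of PFKFB3, was lowest in the graft at 3.96 CPM, with 10.4 and 5.39 CPM in the distended libraries and 21.9 and 8.39 CPM in the controls.

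None of the HIF subunits and prolyl hydroxylases was called. HIF1A had 205 CPM in the graft, 120 and 223 CPM in the distended libraries, and 134 and 232 CPM in the controls, a log2 fold change of 0.17 ± 0.88 (SE) in the graft against control. EPAS1, which encodes HIF-2 alpha, had 97.8 CPM in the graft, 76.8 and 52.1 CPM in the distended libraries, and 132 and 83.9 CPM in the controls, a log2 fold change of -0.14 ± 0.78 (SE) in the graft and -0.73 ± 0.65 (SE) in distended vein against control. EGLN1, the main oxygen-sensing prolyl hydroxylase, ranged from 20.1 to 37.3 CPM over the 5 libraries, and EGLN3, an isoform that HIF itself induces, had 12.2 CPM in the graft, 15.7 and 18.0 CPM in the distended libraries, and 38.4 and 13.4 CPM in the controls.

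The other HIF targets went in both directions. DDIT4 (REDD1), a stress-induced inhibitor of mTORC1, had 19.6 CPM in the graft, 61.9 and 3.60 CPM in the distended libraries, and 249 and 85.6 CPM in the controls. Both controls were above all 3 treated libraries. Its log2 fold change was -3.09 ± 1.45 (SE) in the graft and -2.28 ± 1.06 (SE) in distended vein against control, with unadjusted p of 0.0609 and 0.0592 and adjusted p of 0.56 and 1 in edgeR. P4HA1 and P4HA2, subunits of the collagen prolyl hydroxylases, had 45.2 and 37.5 CPM in the graft, while the controls had 17.5 and 18.5 CPM for P4HA1 and 23.0 and 18.5 CPM for P4HA2. KDM3A, a histone demethylase, and BNIP3L, a mitophagy receptor, had log2 fold changes of -1.07 and -0.98 in the graft against control. NDRG1, ADM, ANKRD37 and BNIP3 had log2 fold changes between -0.06 and 1.75, with unadjusted p of 0.33 or more. CA9, which marks severe hypoxia in many tumours, had 19 UMIs in the graft, 0 and 1 in the distended libraries, and 3 and 1 in the controls.

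The genes differed in which nuclei carried their UMIs. Nuclei were clustered without using any of these genes, and 1 of the 19 clusters was rich in ribosomal protein RNA. A marker counted towards a name if it had at least 3 UMIs in a cluster and at least 2-fold the level of the other nuclei. Only 2 markers of its best list counted for this cluster, which stayed without a cell type name. It held 261 nuclei in the graft, 3 and 10 in distended dogs 1 and 2, and 11 and 1 in control dogs 1 and 2. Its nuclei had a median of 5251 UMIs in the graft, against 2407 in the other graft nuclei, and 7854 against 701 in distended dog 2. Ribosomal protein genes took 17.4% of its UMIs in the graft, 23.3% in distended dog 2 and 11.8% in control dog 1, against between 0.386% and 1.07% in the other nuclei of the 5 libraries. This cluster held 9.65% of the nuclei of the graft and 54.9% of its UMIs of the 36 genes. The share of those UMIs was 63.8% in distended dog 2 (4.15% of nuclei), 32.9% in control dog 1 (1.44%), 1.86% in distended dog 1 (0.142%) and 0.392% in control dog 2 (0.097%). Of the UMIs of all genes outside the dominant features, the cluster held 30.4% in the graft and 35.3% in distended dog 2. That share was 14.4% in control dog 1, 0.798% in distended dog 1 and 0.182% in control dog 2.

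Here the 15 glycolytic enzymes together reached 5769 UPM in the graft and 6786 UPM in distended dog 2, against 2896 UPM in control dog 1. In the other nuclei they were at 863 UPM in the graft, 626 and 1006 UPM in the distended libraries, and 475 and 801 UPM in the controls. With all nuclei counted the enzymes were at 2357 UPM in the graft, 635 and 3046.5 UPM in the distended libraries, and 823 and 806 UPM in the controls, so that the libraries were closer together once the cluster was set aside. In the graft it held 4289 of 4938 GAPDH UMIs, 1623 of 1802 for ALDOA, 2300 of 2530 for TPI1, 2851 of 3317 for ENO1, 2840 of 3271 for LDHA and 1351 of 1649 for PGAM1. Endothelial markers stood at 4098 UPM in the graft nuclei of this cluster and at 5846 UPM in the other graft nuclei, fibroblast markers at 248 and 1411, neutrophil markers at 188 and 626, and macrophage and monocyte markers at 226 and 439. In the graft's part of the cluster 15 of 15 endothelial, 15 of 16 fibroblast and 12 of 14 neutrophil markers had a UMI. Which cells its nuclei came from was not tested, and neither was the part that their RNA content had in the enzyme levels.

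**Figure D2:**
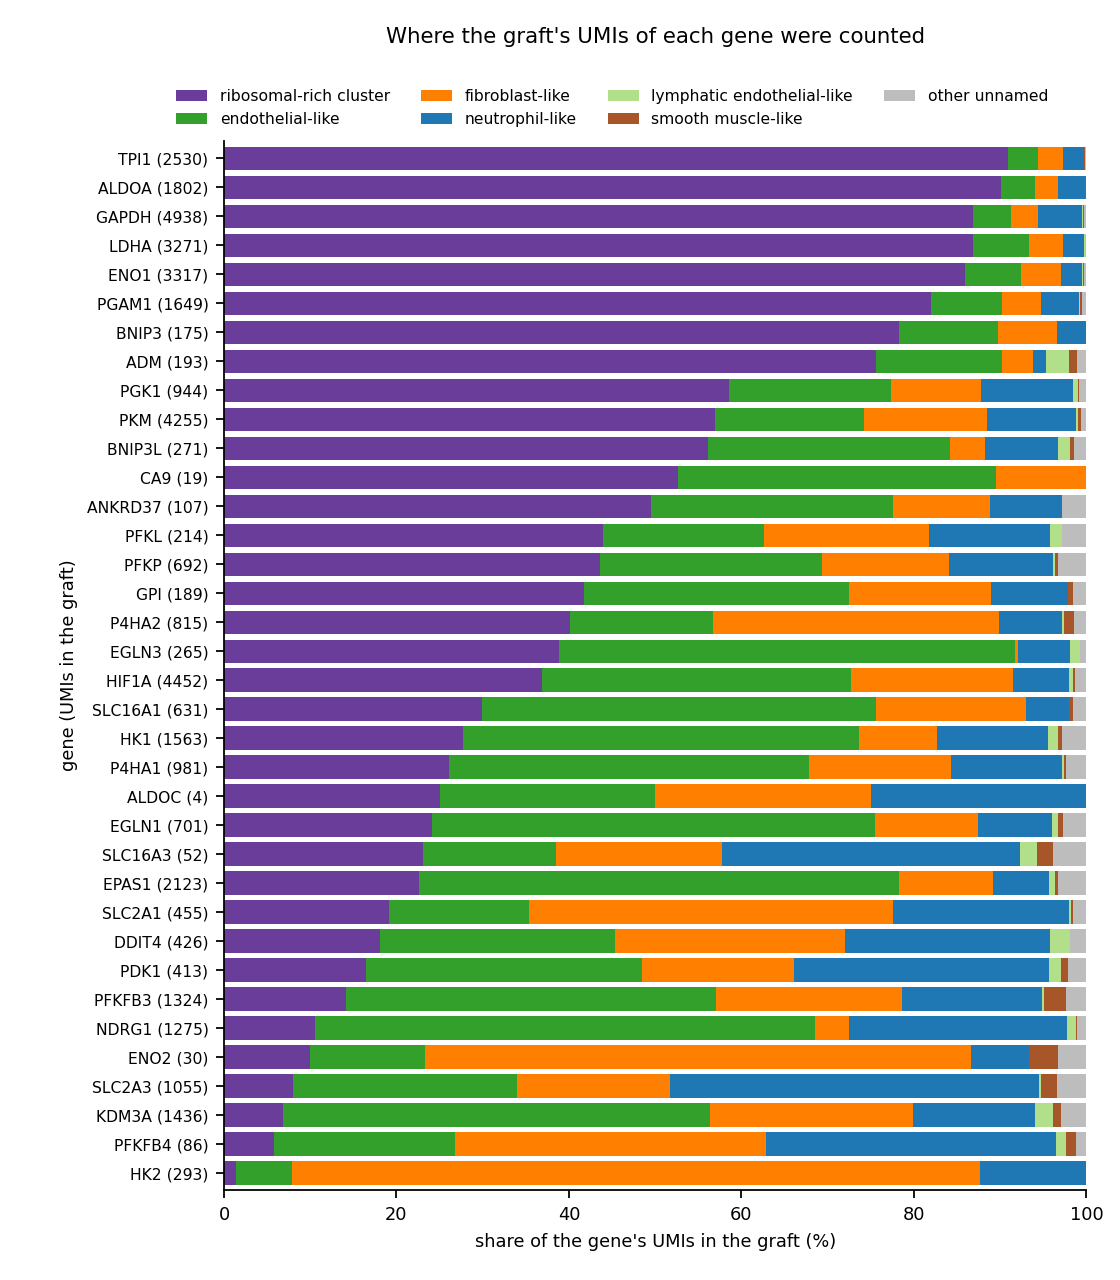
Share of each gene's graft UMIs (horizontal axis, %) counted in each class of graft nuclei, 1 bar per gene with its UMI total in brackets, ordered by the share in the ribosomal-rich cluster. TPI1 (90.9%) and ALDOA (90.1%) lie almost wholly in that cluster, and HK2 (1.37%) almost wholly outside it.

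**Figure D3:**
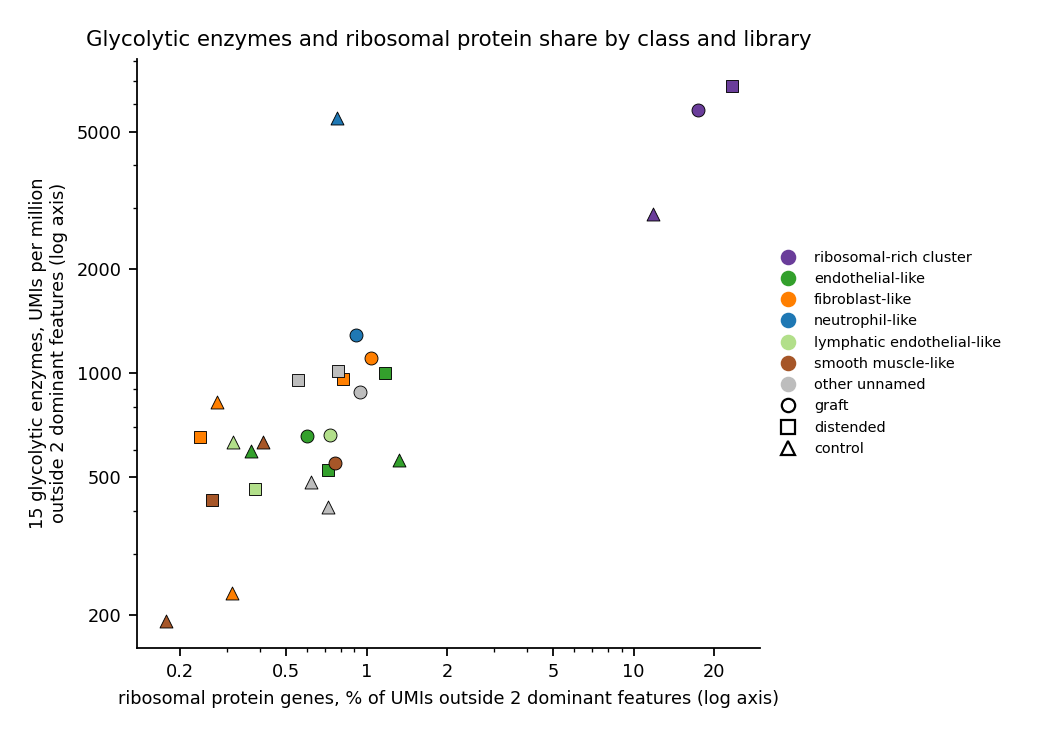
Summed level of the 15 glycolytic enzymes (vertical axis, UPM, log axis) against the share of ribosomal protein genes (horizontal axis, %, log axis), 1 point per class and library with at least 10 nuclei. The 3 points of the ribosomal-rich cluster are the only ones above 10% ribosomal protein, and of the rest the neutrophil-like nuclei of control dog 2, 16 nuclei with 55 enzyme UMIs, alone exceed 2000 UPM.

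Without the cluster, the whole-vein fold changes of graft over control were smaller for the enzymes from aldolase to lactate dehydrogenase named above, and larger for HK2 and SLC2A1. The log2 fold change of graft over control was then 0.81 for TPI1, 0.16 for ALDOA, 1.202 for PGAM1, 0.68 for ENO1, 0.29 for LDHA and -0.18 for GAPDH. It was 4.54 for HK2, against 4.23 with the cluster, and 4.93 for SLC2A1, against 4.03 with it. For SLC16A1 it was 3.68, against 3.94, and for PFKFB3 1.95, against 1.86. ADM, which encodes the vasodilator adrenomedullin, and BNIP3, a mitophagy receptor, had 75.6% and 78.3% of their graft UMIs in the cluster and a log2 fold change of -0.87 and -1.30 without it, against 0.77 and -0.06 with it. The median of the 33 genes was 0.22 without the cluster, beside 0.08 over all genes, for the graft against control, and 0.12 beside 0.00 for distended against control. The number of genes called was 0 with and without the cluster. This alternative was chosen after the data had been seen.

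**Figure D4:**
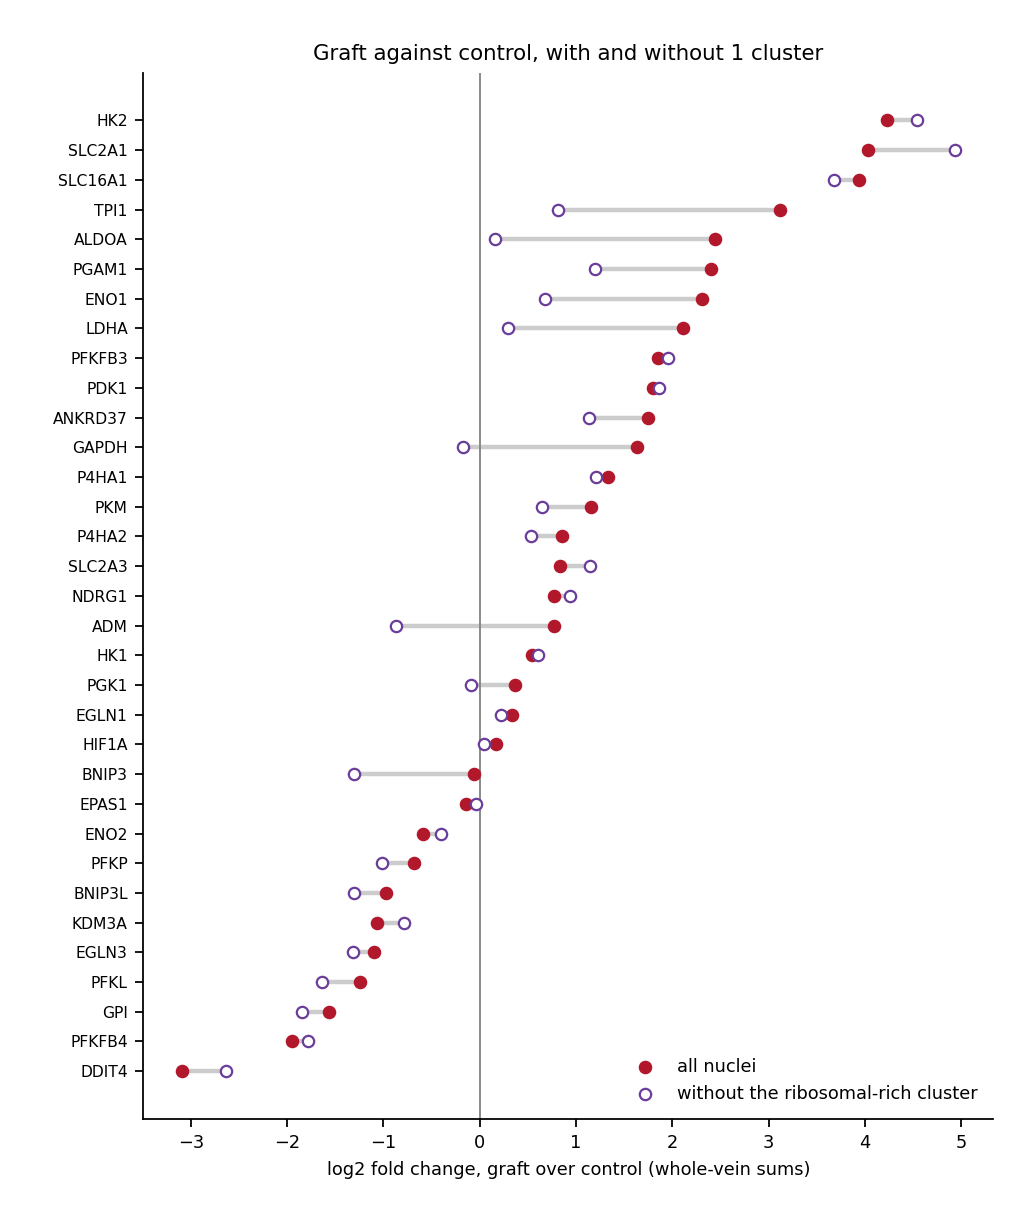
Fitted log2 fold change of graft over control in whole-vein sums (horizontal axis) for the 33 tested genes, with all nuclei (filled) and without the ribosomal-rich cluster (open), ordered by the filled points. TPI1 is at 3.12 with and 0.81 without the cluster, and HK2 at 4.23 with and 4.54 without it.

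In the graft the remaining UMIs of several genes sat in different cell classes, named from marker genes. HK2 was concentrated in fibroblast-like nuclei, with 234 of its 293 graft UMIs (79.9%) and 135 UPM (exact Poisson 95% interval 119 to 154), against 30.8 UPM (21.6 to 42.7) in neutrophil-like nuclei and 4.37 UPM (2.63 to 6.82) in endothelial-like nuclei. SLC2A1 followed a like order, at 111 UPM (95.95 to 128) in fibroblast-like, 79.7 (64.3 to 97.6) in neutrophil-like and 17.0 (13.4 to 21.4) in endothelial-like nuclei. These intervals cover counting error in 1 library only. SLC16A1 had 66.2 UPM (58.8 to 74.3) in endothelial-like and 63.7 (52.3 to 76.7) in fibroblast-like nuclei, which overlap.

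SLC2A3 was highest of the larger classes in neutrophil-like nuclei, at 387 UPM (352 to 425), against 108 (92.7 to 124) in fibroblast-like and 63.0 (55.7 to 70.9) in endothelial-like nuclei. NDRG1, a stress-induced HIF target, had 277 UPM (247 to 309) in neutrophil-like and 170 (158 to 183) in endothelial-like nuclei, against 28.9 (21.5 to 38.2) in fibroblast-like nuclei. PDK1 had 104.5 UPM (86.8 to 125) in neutrophil-like nuclei, 42.2 (33.1 to 53.1) in fibroblast-like and 30.3 (25.4 to 35.98) in endothelial-like nuclei. Neutrophil-like nuclei numbered 453 in the graft, 1 and 1 in the distended libraries, and 0 and 16 in the controls, so that no test between groups was possible in them. Their cluster had 12 counted markers of the neutrophil list and 9 of the macrophage and monocyte list. The name depends on the clustering: without the dominant features no cluster was named neutrophil-like. A T/NK lymphoid-like cluster with 504 graft nuclei then had 14 counted markers of that list and 12 of the neutrophil list. In the graft these nuclei carried neutrophil markers at 3008 UPM and also endothelial markers at 2657 UPM, and the part of the second in these levels was not tested.

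EPAS1 was at 271.5 UPM (256 to 287) in the graft's endothelial-like nuclei, against 134 (117 to 152) in its fibroblast-like and 117 (98.5 to 139) in its neutrophil-like nuclei. EGLN3 had 140 UMIs in endothelial-like nuclei of the graft, 32.2 UPM (27.1 to 38.0), and 1 UMI in fibroblast-like nuclei. P4HA2 was higher in fibroblast-like nuclei, at 156 UPM (138 to 176), than in endothelial-like nuclei, at 31.0 (26.02 to 36.7), while P4HA1 was at 93.2 (79.3 to 109) and 94.2 (85.3 to 104) in the same classes. HIF1A was broad, with 484 UPM (452 to 518) in fibroblast-like, 367 (349 to 385) in endothelial-like and 249 (222 to 280) in neutrophil-like nuclei.

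Fibroblast-like nuclei allowed a comparison between groups, with 791 nuclei in the graft, 1211 and 51 in distended dogs 1 and 2, and 48 and 388 in control dogs 1 and 2. Here HK2 rose in the graft against distended vein, and 3 further genes, EPAS1, SLC2A1 and SLC16A1, had many UMIs in the graft and next to none elsewhere without passing the test. Like HK2, these 3 genes were abundant enough to be tested only through the graft. The graft's nuclei of this class came almost wholly from 1 cluster with 787 graft nuclei, and those of the other libraries from other clusters, except 8 of the 51 in distended dog 2. Fibroblast markers were at 3609 UPM in the graft's fibroblast-like nuclei, against 16043 and 5901 in the distended libraries and 10556 and 14338 in the controls. Endothelial markers were at 521 UPM in the graft's fibroblast-like nuclei, 755 and 644 in the distended libraries and 1624 and 1201 in the controls. Neutrophil markers were at 273 UPM in the graft, 14.4 and 286 in the distended libraries and 0 and 140 in the controls, with a UMI for 13 of 14 markers in the graft, 5 and 4 in the distended libraries and 0 and 5 in the controls. ALPL was at 0 in all 5 libraries of this class, and CXCR2, FPR2, LCN2 and MMP9 were at 0 outside the graft. The part of these nuclei or their RNA in the results was not tested. Of the 36 genes 26 were tested.

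HK2 had 234 UMIs in the graft's fibroblast-like nuclei, 0 and 0 in distended dogs 1 and 2, and 0 and 1 in control dogs 1 and 2. All but 1 of its UMIs in this class were thus in the graft, and HK2 passed the low-count filter only through that 1 library. It was at least 28.3-fold higher in the graft than in distended vein, by a floor of 3 counts over the distended group, at least 26.8-fold higher without distended dog 2 and at least 1.44-fold higher without distended dog 1. The edgeR adjusted p over 7241 genes was 0.00631, and HK2 was the 1 of 26 genes called (3.85%), beside 0.967% of all genes called higher and 1.8% called lower. At an unadjusted p under 0.05, 4 were higher and 1 lower, beside 5.04% and 7.33% of all genes. With the dog as a replicate block HK2 was not called (edgeR adjusted p 0.057), nor was it without distended dog 1 (edgeR adjusted p 0.999). DESeq2 gave it an unadjusted p of 0.0114 and no adjusted p. Against control the ratio was 12.8 (2.27 to 506.5), no fold could be bounded above 1 without control dog 2, and HK2 was not called (edgeR adjusted p 0.33).

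EPAS1 had 231 UMIs in the graft's fibroblast-like nuclei, 5 and 1 in the distended libraries, and 0 and 0 in the controls. The graft stood above the rest, at 62.3 CPM against 3.92 and 14.6 CPM in the distended libraries. It was at least 4.20-fold higher in the graft than in control, at least 3.70-fold without control dog 1, and no fold could be bounded above 1 without control dog 2, since control dog 1 had only 8621 UMIs outside the dominant features in this class. The edgeR adjusted p was 0.13 against control and 0.12 against distended vein, where the log2 fold change was 3.58 ± 1.31 (SE). SLC2A1 had 192 UMIs in the graft, 5 and 1 in the distended libraries and 0 and 0 in the controls, and was higher than control by at least 3.49-fold (adjusted p 0.18 in edgeR). SLC16A1 had 110 UMIs in the graft, 3 and 0 in the distended libraries and 0 and 0 in the controls, and was higher than control by at least 2.00-fold (adjusted p 0.40 in edgeR). Neither bound held above 1 without control dog 2.

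GPI went the other way in this class, with 8.36 CPM in the graft, 81.5 and 29.2 CPM in the distended libraries and 0 and 73.0 CPM in the controls, and an edgeR adjusted p of 0.38 for the graft against control and 0.24 against distended vein. HIF1A was at 226 CPM in the graft, 130 and 380 CPM in the distended libraries and 41.1 and 365 CPM in the controls, so that the groups overlapped. GAPDH had 150 UMIs in the graft, 24 and 0 in the distended libraries and 0 and 2 in the controls. LDHA had 127 UMIs in the graft, 12 and 2 in the distended libraries and 0 and 3 in the controls, and PGK1 had 99 UMIs in the graft, 19 and 3 in the distended libraries and 0 and 3 in the controls. Their log2 fold changes of graft over control were 2.07, 1.28 and 0.92, and none of the 3 was called in edgeR.

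Among the 26 genes the graft was above all other libraries for 12 (46.2%), beside 31.9% of all genes, and below all for 2 (7.69%), beside 10.8%. In the graft against control 0 of 26 were called (0.4% of all genes called higher and 1.8% lower), while 4 were higher and 1 lower without adjustment (4.67% and 7.44% of all genes under 0.05), and DESeq2 called 0 of the 4 genes to which it gave an adjusted p. In distended against control 0 of 26 were called, as were 0% of all genes, where 0 of them, beside 0.898% of all genes higher and 0.304% lower, passed an unadjusted p under 0.05. DESeq2 called 0 of 26 there. Without distended dog 2, distended vein was 1 library, and the graft against it gave many more calls over all genes than the main fit. Among the hypoxia and glycolysis genes called there, the log2 fold change was 9.37 for HK2, 3.98 for EPAS1, 3.715 for SLC2A1 and 3.63 for SLC16A1. It was 2.68 for PGAM1, 1.88 for LDHA, -3.25 for GPI, -1.435 for PFKL, -1.86 for NDRG1 and -3.29 for ADM. ADM was not tested in the main fit of this class.

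Endothelial-like nuclei numbered 1007 in the graft, 495 and 135 in the distended libraries and 251 and 399 in the controls. HK2, which was called in fibroblast-like nuclei, had 19 UMIs in the graft here and was too scarce to be tested in this class. No gene of the 27 tested was called in any of the 3 comparisons, although 1.47% of all genes were called higher and 0.92% lower in the graft against control. The graft was above all 4 other libraries for 6 of 27 (22.2%), beside 30.1% of all genes, and below all 4 for 2 (7.41%), beside 20.1%. The median log2 fold change of graft over control was 0.00 over the 27 genes and 0.11 over all 9240 genes. Most endothelial-like nuclei of the graft (710) came from a cluster found in the graft alone, and 124 of 135 in distended dog 2 from a cluster that also held 296 graft nuclei. Endothelial markers were at 8791 UPM in the graft, 17689 and 10176 in the distended libraries and 16479 and 16198 in the controls. At an unadjusted p under 0.05 in edgeR, 1 gene was higher and 1 lower in the graft against control (8.56% and 8.61% of all genes). In the graft against distended vein 0 were (4.68% and 5.03% of all genes), where 0.703% of all genes were called higher and 0.13% lower. In distended against control 0 were (1.66% and 1.17% of all genes), where 0% of all genes were called. DESeq2 called 0 of the 19 genes given an adjusted p in the graft against control, 0 of 21 in the graft against distended vein and 0 of 27 in distended against control.

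DDIT4 had 13.3 CPM in the graft's endothelial-like nuclei, 134 and 0 CPM in distended dogs 1 and 2, and 256 and 124 CPM in control dogs 1 and 2. The graft and distended dog 2 were low, while distended dog 1 overlapped the controls. Its log2 fold change of graft over control was -3.84 ± 1.28 (SE), with an unadjusted p of 0.00623 and an adjusted p of 0.11 in edgeR. With the dog as a replicate block it was -5.18 and the edgeR adjusted p 0.000846. The edgeR adjusted p was 0.0116 with the dog numbers of the distended libraries exchanged in that block. It was 0.0162 with no low-count filter and 0.00672 with clusters made without the dominant features, so that the call depended on the setting. Leaving out a single library also gave a call, with edgeR adjusted p of 0.0375 when control dog 1 was dropped, 0.00124 for distended dog 1 and 0.00134 for distended dog 2, but none when control dog 2 was dropped. In distended against control it was called lower without distended dog 1 (0.000419), and in the graft against distended vein without distended dog 2 (0.016). In fibroblast-like nuclei the log2 fold change of DDIT4 was 1.12. A test of the difference between the 2 classes, added after the data had been seen, gave 4.603 on the log2 scale with an edgeR adjusted p of 0.10 over 10763 genes. None of the hypoxia and glycolysis genes was called in it, but few genes were called at all. Of the 10763 genes, 12 were called for graft against control, 21 for graft against distended vein and 0 for distended against control.

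NDRG1 had 84.9 CPM in the graft's endothelial-like nuclei, 22.0 and 45.5 CPM in the distended libraries, and 37.0 and 19.4 CPM in the controls, above every other library but not called (log2 fold change 1.56, unadjusted p 0.0528, edgeR adjusted p 0.30). SLC16A1 had 288 UMIs there, against 3 and 7 in the distended libraries and 3 and 0 in the controls, a pooled ratio of 7.32 (2.48 to 35.7) over control that was 4.47 without control dog 2 and at least 2.85-fold without control dog 1. SLC2A1 had 74 UMIs in the graft, 1 and 0 in the distended libraries and 1 and 0 in the controls, a ratio of 5.64 over control whose interval (0.982 to 226) includes 1. In this class too SLC2A1 was abundant enough to be tested only through the graft. PFKL, the liver-type phosphofructokinase, had 4.59 CPM in the graft, 23.2 and 3.50 CPM in the distended libraries and 17.2 and 23.2 CPM in the controls (edgeR adjusted p 0.33 against control).

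GAPDH, LDHA, PGK1 and the HIF subunits were not called in endothelial-like nuclei. GAPDH had 25.1 CPM in the graft, 27.1 and 77.0 CPM in the distended libraries, and 49.3 and 19.4 CPM in the controls. LDHA had 24.7 CPM in the graft, 16.8 and 45.5 CPM in the distended libraries, and 17.2 and 23.2 CPM in the controls. PGK1 had 20.3 CPM in the graft, 15.5 and 10.5 CPM in the distended libraries, and 27.1 and 23.2 CPM in the controls. HIF1A had 183 CPM in the graft, 95.6 and 140 CPM in the distended libraries, and 98.5 and 240 CPM in the controls, while EPAS1 had 136 CPM in the graft, 150 and 49.0 CPM in the distended libraries, and 158 and 143 CPM in the controls. For each of these 5 genes the graft lay inside the range of the other 4 libraries, although for PGK1 the 3 groups did not overlap and for EPAS1 the graft was below both controls.

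**Figure D5:**
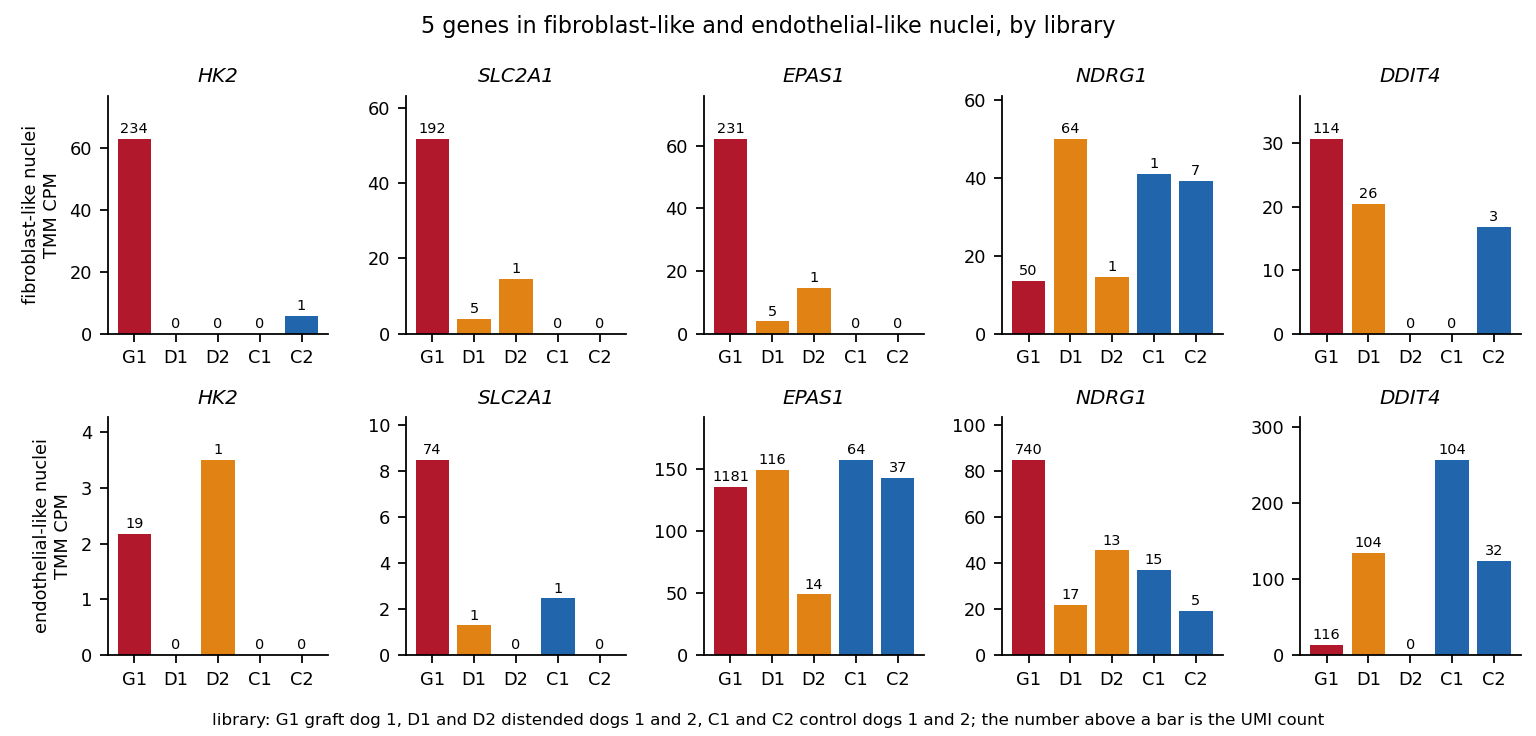
TMM CPM (vertical axes, linear from 0) of 5 genes in fibroblast-like (top) and endothelial-like nuclei (bottom) of each library, 1 bar per library with its UMI count above it. HK2, SLC2A1 and EPAS1 are high in the graft's fibroblast-like nuclei (234, 192 and 231 UMIs), and in endothelial-like nuclei DDIT4 is at 13.3 CPM in the graft against 256 and 124 CPM in the controls.

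Neighbouring pathways were read from 5 further gene lists in the same whole-vein fit, in which no gene was called in any comparison. Of 26 genes of pyruvate oxidation and the TCA cycle, 20 had a positive and 6 a negative log2 fold change in the graft against control, with a median of 1.01, and 0 had an unadjusted p under 0.05. Over all genes the median was 0.12, and 4.78% were higher and 4.04% lower at that p. PDP2, a phosphatase that reactivates pyruvate dehydrogenase, and DLST, a subunit of the oxoglutarate dehydrogenase complex, had log2 fold changes of 3.32 and 1.66. Of 14 tested glycolysis and glycogen genes outside the 36, 7 were positive and 7 negative, with a median of 0.00. LDHB, the lactate dehydrogenase subunit of oxidative tissues, had 36.9 CPM in the graft, 7.08 and 37.8 CPM in the distended libraries and 6.58 and 1.68 CPM in the controls. The pentose phosphate pathway, with 7 genes tested, had a median of 0.86.

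Of 29 tested HIF targets outside the 36, 13 were positive and 16 negative in the graft against control, with a median of -0.21, and 2 were higher and 1 lower at an unadjusted p under 0.05, beside a median of 0.12 and shares of 4.78% and 4.04% over all genes. FAM162A had 19.7 CPM in the graft, 5.22 and 7.19 CPM in the distended libraries and 2.19 and 1.68 CPM in the controls. Of 13 other genes of the HIF system the median was -0.12. HIF3A, a HIF alpha subunit that can restrain the others, had 1.52 CPM in the graft, 29.5 and 0 CPM in the distended libraries, and 69.1 and 28.5 CPM in the controls, and SIAH1, a ubiquitin ligase that acts on the hydroxylases, had 32.8 CPM in the graft, 14.2 and 27.0 CPM in the distended libraries and 12.1 and 11.7 CPM in the controls.

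Within the cell classes HIF3A, MAFF and CITED2 of these lists passed the test and fell in the graft. The calls did not hold under every setting. With RLE, another scaling, the edgeR adjusted p was 0.0642 for HIF3A, 0.0764 for MAFF and 0.0841 for CITED2. With upper-quartile scaling it was 0.0604 for HIF3A, 0.0499 for MAFF and 0.061 for CITED2. HIF3A was at 0.0571 without the dominant features and 0.106 at clustering resolution 1.5. With no low-count filter HIF3A (0.00368) and CITED2 (0.0277) were called, and MAFF (0.209) was not. HIF3A fell against control in endothelial-like nuclei, with 14 UMIs in the graft, 34 and 0 in the distended libraries and 26 and 9 in the controls (log2 fold change -4.91, edgeR adjusted p 0.0352, and 0.176 without control dog 2). In fibroblast-like nuclei MAFF, a small MAF transcription factor, fell against control, with 1.08 CPM in the graft, 30.6 and 0 CPM in the distended libraries and 41.1 and 44.9 CPM in the controls (edgeR adjusted p 0.0426). Those levels come from 4 UMIs in the graft, 39 and 0 in the distended libraries, and 1 and 8 in the controls. CITED2, which competes with HIF for its coactivator, fell against distended vein in the same class, with 4 UMIs in the graft, 66 and 0 in the distended libraries and 0 and 1 in the controls (edgeR adjusted p 0.0301). It passed the low-count filter through distended dog 1 alone, and the graft was not below distended dog 2 or control dog 1. MAFF was not called without either control library (0.125 and 0.865). With the dog as a replicate block neither MAFF nor CITED2 was called in fibroblast-like nuclei, with edgeR adjusted p of 0.545 for MAFF and 0.0733 for CITED2. Without distended dog 1 CITED2 had too few UMIs to be tested. MAFF and CITED2 were named after their values had been seen.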

How the data were processed

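Single-nucleus RNA was measured in 5 libraries of dog cephalic vein. The authors deposited raw counts, as a table of unique molecular identifiers (UMIs) per gene and barcode for each library. Per the submitters' processing notes and the matrix header they used Cell Ranger 7.0.0, and for the reference genome the build was not given in the sources used here. Nuclear RNA was captured by 3′ tags, which per the labels came from the Chromium 3′ v3.1 kit, so levels of different genes were not compared. Features were joined by symbol, and 24 features that name no gene (0.588% to 11.5% of UMIs of a library) were left out. Of 7391 barcodes 6855 with at least 100 detected genes were kept.

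Nuclei were clustered with scanpy 1.11.5 (2000 variable genes, 20 components, Leiden resolution 0.8), with the 36 genes and all further listed genes held out of the clustering. Clusters were named "-like" only from fixed markers, and 4 of 19 stayed unnamed. Scrublet marked 25 nuclei (0.365%), too few for the caller to have worked, and they were kept. UMIs were summed per library over all nuclei and over each class, and tested with edgeR 4.0.16 (quasi-likelihood, TMM, filterByExpr, 1 fit over all groups, two-sided, Benjamini-Hochberg over all genes tested, threshold 0.05). The graft's 1 library was thereby assumed to vary like the other groups. Intervals are exact at 95% and cover counting error only, and bounds use a floor of 3 counts over a group. Alternatives were DESeq2 1.42.0, other scalings, filters, clusterings and libraries left out. The edgeR test of graft against control was also run on simulated counts, whose spread between libraries was set below that of the data. The dogs pair libraries by animal per the labels, and the correlation of the same dog's deviations was -0.30 in whole vein, -0.01 in endothelial-like and 0.02 in fibroblast-like sums.

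The 36 genes, the further lists and the markers were chosen with earlier results of these data known. Full values are given for the genes with the largest absolute log2 fold changes (8 for graft against control and 5 for each other whole-vein comparison, and 5 for graft against control in each class), for HIF1A, EPAS1, GAPDH, LDHA and PGK1, and for the 2 genes with the smallest p in each further list. Results for some genes of the further lists are not reported here. Promoter motifs and protein or transcript sequences were not analysed here.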

Additional observations from a re-analysis of the deposited data

How the results depend on the processing

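The main limits are 1 graft library, 2 libraries in each other group, few nuclei in distended dog 2 and few fibroblast-like UMIs in control dog 1, with many genes at 0 to 3 UMIs outside the graft. In whole vein the number of hypoxia and glycolysis genes called in the graft against control was 0, and 1 with no low-count filter. Of all 26765 genes in the fit with no filter, 216 were called higher and 71 lower, against 0 in the main fit. In endothelial-like nuclei the number of hypoxia and glycolysis genes called in the graft against control was 0. It was 1 (DDIT4) with no low-count filter, with the replicate block, with crossed dog numbers and with clusters made without the dominant features. Over all genes of that class, 136 were called higher and 85 lower in the main fit, 375 and 156 with no filter and 261 and 264 with the block. Clusters made without the dominant features gave 207 and 167. In fibroblast-like nuclei the count of these genes for the graft against distended vein was 1 (HK2), and 0 with the replicate block and with crossed dog numbers, while DESeq2 gave HK2 no adjusted p. Over all genes of that class, 70 were called higher and 130 lower in the main fit, and 147 and 27 with the block. The replicate block changed no other count of calls among the hypoxia and glycolysis genes. Crossed dog numbers, tried because the same-dog correlation was below 0 in whole vein, gave 9, 138 and 20 calls over all genes in whole vein for distended against control, graft against control and graft against distended, 2, 237 and 44 in endothelial-like and 0, 5 and 0 in fibroblast-like nuclei. Other scalings moved the median of all genes in fibroblast-like nuclei, graft against control, to 0.65 (RLE), 0.42 (upper quartile) and 0.69 (DESeq2), against 0.29.

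With 1 library left out, a group was left with 1 library, and calls over all genes rose in several of these fits. In each comparison below, the highest count of hypoxia and glycolysis genes called was reached in the fit with the most calls over all genes. The ranges are therefore not a result about the hypoxia and glycolysis genes alone. The counts of these genes called ranged as follows. In whole vein they were 0 to 3 for distended against control, 0 to 3 for graft against control and 0 to 2 for graft against distended. In endothelial-like nuclei they were 0 to 1 in each of the 3 comparisons. In fibroblast-like nuclei they were 0 to 1 for graft against control and 0 to 10 for graft against distended.

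Named genes turned direction under some settings, among them genes with large changes in the main fit, and the cause was not tested. In the main whole-vein fit the log2 fold change of GAPDH was 1.84 in distended against control and 1.64 in graft against control. There ALDOA was at 2.45 in distended against control and ENO2 at -1.61 in graft against distended. GPI was at -2.67 in fibroblast-like nuclei, graft against control. Without the ribosomal-rich cluster the whole-vein log2 fold change of GAPDH was -0.21 in distended against control, -0.18 in graft against control and 0.038 in graft against distended, and that of PGK1 in graft against control was -0.088. With no low-count filter it was 0.23 for EPAS1 in graft against control and 0.19 for GAPDH in graft against distended, where the block gave 1.62. Crossed numbers gave 0.75 for ENO2 in graft against distended and -0.005 for PGK1 in graft against control.

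At resolution 0.4 the endothelial-like class held 1000 nuclei in the graft, 26 and 23 in the distended libraries and 24 and 0 in the controls, so control dog 2 was absent and the class was nearly the graft alone. In endothelial-like nuclei, distended against control, GAPDH was -0.80 at resolution 0.4, -0.58 at 1.5 and -0.66 with clusters made without the dominant features, and LDHA was -0.45 at 1.5 and -0.43 without them. In graft against control HIF1A was -0.006 at resolution 1.5, EPAS1 was 0.22 with no filter and 0.14 with crossed numbers, PGK1 was 0.055 with no filter, and LDHA was -0.001 with crossed numbers, -0.47 and -0.71 at resolutions 0.4 and 1.5 and -0.31 without the dominant features. In graft against distended LDHA was 0.086 with no filter, 0.33 with the block and 0.12 without the dominant features.

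In fibroblast-like nuclei, distended against control, HIF1A was -0.13 at resolution 1.5, GAPDH was -0.22 with the block, and LDHA was 0.056 with no filter, 0.58 by DESeq2 and 1.001 with the block. In graft against control HIF1A was 0.33 (RLE), 0.067 (upper quartile), 0.46 (no filter), 0.38 (DESeq2), 1.69 (block) and 0.29 (without the dominant features), against -0.02. In graft against distended HIF1A was 0.25 with no filter and 1.05 with the block, and PGK1 was -0.32 with crossed numbers.

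Leaving out 1 library gave these whole-vein ranges. In distended against control ALDOA ran between -0.61 and 3.71, GAPDH between -1.685 and 2.75, HIF1A between -0.61 and 0.35, LDHA between -1.34 and 2.18, and PGK1 between -0.92 and 0.25. In graft against control HIF1A ran between -0.071 and 0.64, EPAS1 between -0.40 and 0.33, and PGK1 between -0.023 and 1.10. In graft against distended HIF1A ran between -0.10 and 0.79, GAPDH between -1.12 and 3.34, and LDHA between -0.077 and 3.46.

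In endothelial-like nuclei, distended against control, HIF1A ran between -1.002 and 0.26, GAPDH between -0.39 and 1.39, and LDHA between -0.26 and 1.19. In graft against control HIF1A ran between -0.37 and 0.93 and GAPDH between -0.93 and 0.40, and in graft against distended EPAS1 ran between -0.14 and 1.46 and LDHA between -0.89 and 0.56. In fibroblast-like nuclei, distended against control, HIF1A ran between -0.75 and 2.67, GAPDH between -6.29 and 7.22, and LDHA between -0.57 and 7.03. In graft against control GPI ran between -3.03 and 6.43 and HIF1A between -0.61 and 2.66, and in graft against distended HIF1A ran between -0.82 and 0.82 and PGK1 between -0.78 and 0.86.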

Other observations

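Smaller classes gave values that no comparison used. The 15 glycolytic enzymes were at 1294 UPM (UMIs per 1000000 outside the dominant features) in the graft's 453 neutrophil-like nuclei. In the 16 neutrophil-like nuclei of control dog 2, from 10034 UMIs outside the dominant features, they had 55 UMIs, or 5481 UPM, of which GAPDH had 24, LDHA 9 and PKM 7.

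In the graft's 37 smooth muscle-like nuclei PFKFB3 had 33 UMIs, or 478 UPM (exact Poisson 95% interval 329 to 671), against 184 (160 to 210.5) in neutrophil-like, 165.5 (147 to 186) in fibroblast-like and 130 (120 to 141.5) in endothelial-like nuclei. SLC2A3 had 20 UMIs in the same 37 nuclei, or 290 UPM (177 to 447). Both sets come from 1 library, and no other library was compared.

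ENO2, the neuronal enolase isoform, had 19 of its 30 graft UMIs in fibroblast-like nuclei. EGLN3 had 103 UMIs in the ribosomal-rich cluster of the graft, 31.0 UPM (25.3 to 37.6).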
